A study of Dugesia japonica with 19 samples.

Results

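Among the m6A sites mapped in regenerating planarians, 517 of 5847 distinct sites (8.84%) were cut well enough in the unmodified control for their level to span most of its range. They were chosen by their control values among the sites listed in at least 1 library, so that the listing limits, which use library values, also bear on which sites could be members. A site counted as 1 motif position on 1 strand of a transcript contig, and it was a member if at most 0.3 of its control reads were uncut and at least 20 control reads covered it. The members lay on 443 contigs, 387 of which held 1 member and 56 several, and they made up 2423 of the 23432 listed site values.

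The animal was Dugesia japonica, a freshwater flatworm, and the measurement was m6A-REF-seq of poly(A)-enriched RNA from pieces of 10 to 20 pooled animals. Head, trunk and tail pieces were sampled on days 0, 1, 3, 5, 7 and 10 of the time course, with 1 MazF-treated library per tissue and day and 18 in all. A single control library came from RNA of intact animals copied by in vitro transcription, which leaves out RNA modifications. The control served every tissue library, and no strain, sex or age is given in the labels.

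N6-methyladenosine (m6A) is a methyl mark that a methyltransferase complex sets on adenosines of messenger RNA, and reader proteins bind it to change the stability or translation of the transcript. MazF is a bacterial endoribonuclease that cuts RNA at ACA motifs and is blocked when the adenosine of the motif is methylated. Reads that run through a motif uncut therefore count as protected, and the level is the uncut share in the library minus the uncut share in the control. Planarians rebuild a lost body part from neoblasts, their dividing stem cells, and position along the head to tail axis is set by signals that differ between the regions. The files name contigs of a transcript assembly and no genes, so the sites are given by contig and position, counted along the contig as filed.

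The control values describe how far the name of these sites holds. The median control uncut share of the 517 members was 0.157, from 0.0101 to 0.3. Only 55 members had 0.05 or less uncut and 154 (29.8%) had 0.1 or less, while 179 (34.6%) lay above 0.2, so most were largely rather than almost fully cut. At the other 5330 sites the median control share was 0.737. By the rule every member had at least 20 control reads, and sites with fewer fell among the others. The median was 91 control reads at the members (quartiles 50 and 197, highest 42210) and 18 at the other sites. That gap comes in part from the choice of members. The highest level a member could reach, 1 minus its control share, ran from 0.7 to 0.990 with a median of 0.843.

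Sites just inside and just outside the limit of 0.3 had the same order of tissues. A control share between 0.25 and 0.3 was held by 85 members. Their median uncut share was 0.824 over 41 head values, 0.872 over 41 trunk values and 0.997 over 26 tail values. A control share between 0.3 and 0.35 was held by 95 sites, which are no members. Their median uncut share was 0.706 over 72 head values, 0.929 over 23 trunk values and 1 over 29 tail values. On the limit of reads, TRINITY_DN1290_c0_g1_i7 position 505 was a member with 4 of 20 control reads uncut, and TRINITY_DN1476_c0_g1_i4 position 227, with 1 of 19, was not. The uncut share of the first was between 0.778 and 0.978 in 6 trunk libraries and that of the second between 0.594 and 0.783 in 5 head libraries.

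What a list holds limits what can be compared. As read from the values, no site was listed with a level under 0.1, and each had 11 or more uncut reads in the library, the control or both. A member cut down to its control level in a library is therefore missing from that list, with no value, and low levels are seen only down to 0.1. Of the members, 369 had at least 11 uncut control reads and could be listed on 1 read. The other 148 needed at least 11 uncut library reads. A single read stood behind 448 member values (18.5%), so levels are described from the 1123 values (46.3%) with at least 10 reads, which cover 311 of the 517 members. The 206 remaining members had fewer than 10 reads in every library that listed them.

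Head lists held fewer of these sites for their length than trunk or tail lists. Members numbered 101, 160, 104, 154, 109 and 43 in head on days 0, 1, 3, 5, 7 and 10. They numbered 86, 107, 116, 161, 144 and 194 in trunk, and 170, 68, 107, 147, 300 and 152 in tail. The ranges of the 3 tissues overlapped, and no difference in number passed the test (log2 head minus trunk -0.33, head minus tail -0.46, trunk minus tail -0.13). As a share of each list, members made up 6.16% ± 0.431 (SD over 6 days) of head lists, 14.6% ± 1.97 of trunk lists and 14.6% ± 1.07 of tail lists. The highest head value, 6.81%, lay below the lowest trunk and tail values, 13.1% and 12.6%. On the log2 scale the head share was lower by 1.24 than that of trunk and by 1.24 than that of tail (lower on 6 of 6 days each, exact sign-flip p = 0.03125, adjusted p = 0.0469).

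Members were spread unevenly over tissues. Of the 517, 110 were listed in head alone, 47 in trunk alone and 90 in tail alone, 133 in trunk and tail, 33 in head and tail, 19 in head and trunk, and 85 in all 3. The other sites were listed in head alone in 40.1% of cases and in trunk and tail in 9.79%, against 21.3% and 25.7% of the members. There were 121 members in 1 library, 75 in 9 or more and 6 in all 18. A site missing from a list may have been unread, unmethylated or too shallow.

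On all 6 days the level at these sites went up from head to trunk to tail. The median level over members with at least 10 reads was 0.407, 0.416, 0.473, 0.411, 0.403 and 0.320 in head on days 0, 1, 3, 5, 7 and 10. In trunk it was 0.756, 0.676, 0.616, 0.673, 0.6 and 0.670, and in tail 0.845, 0.812, 0.843, 0.828, 0.847 and 0.826. The 3 ranges did not overlap.

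Averaged over the 6 days, the median level of head was 0.405 ± 0.0491 (SD), that of trunk 0.665 ± 0.0551 and that of tail 0.834 ± 0.0139. The differences were -0.168 (trunk minus tail), -0.260 (head minus trunk) and -0.428 (head minus tail). All 3 had the same sign on 6 of 6 days (exact two-sided sign-flip p = 0.03125 and adjusted p = 0.03125 over the 3 tissue pairs, the smallest the test can give). With any day left out the test can go no lower than 0.0625. The median reads behind the values kept by the read minimum were similar, 34.9 in head, 39.5 in trunk and 30.5 in tail. So was their median control share, 0.131, 0.118 and 0.130. Over all listed member values, without the read minimum, the median reads were 20.9 in head, 7.25 in trunk and 3.58 in tail. Depth was thus similar only among the values kept, and not over the lists.

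The tissues differed in spread as well. The quartiles of the level, averaged over days, were 0.219 and 0.663 in head and 0.342 and 0.810 in trunk. In tail they were close together, at 0.772 and 0.899, close to the highest level the sites could reach. Head, trunk and tail pieces differ in the cells they hold, and in pooled tissue a change of level within cells and a change in which cells supply the transcript cannot be told apart. Whether the pieces were prepared and digested together is not in the labels, so tissue and preparation cannot be told apart either.

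**Figure D1:**
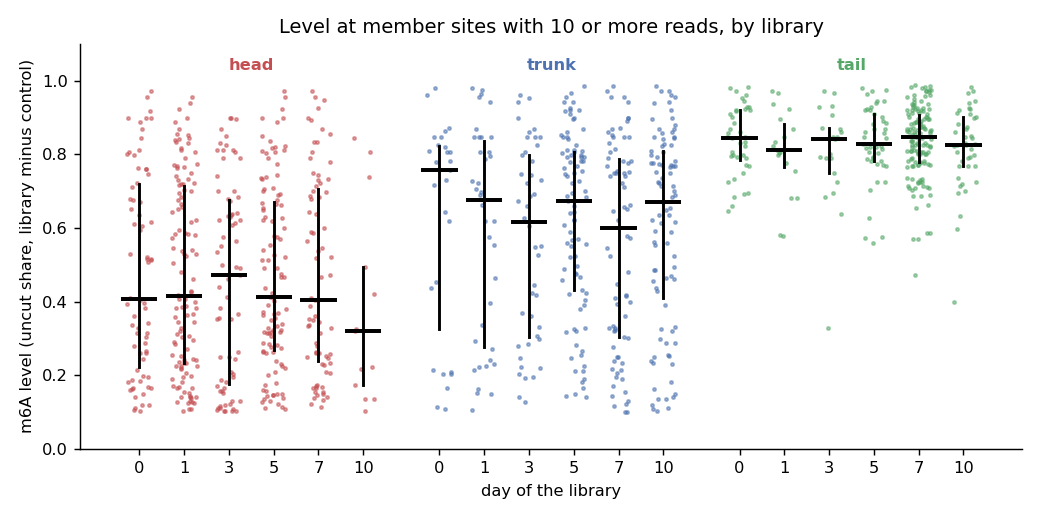
m6A level (library uncut share minus control uncut share, y axis) of each member site with at least 10 reads, by day (x axis) and tissue. Points are sites, thick horizontal bars the library median and vertical bars the quartiles; the 6 tail medians lie between 0.812 and 0.847, the trunk medians between 0.6 and 0.756 and the head medians between 0.320 and 0.473.

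Fully uncut sites, those without a single cut read, were most common in tail. Of the values with at least 10 reads, 18.6%, 11.9%, 9.86%, 9.35%, 16% and 15.4% were fully uncut in head on days 0, 1, 3, 5, 7 and 10. In trunk they were 14.8%, 21.1%, 15.9%, 21.3%, 21.6% and 25.3%, and in tail 57.5%, 42.1%, 42.9%, 57.8%, 66.9% and 50%. Every tail library lay above every head and trunk library, while head and trunk overlapped.

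Over the 6 days the mean share of fully uncut values was 13.5% ± 3.71 (SD) in head, against 20.0% ± 3.92 for trunk and 52.9% ± 9.66 for tail. As a fraction, head minus tail was -0.394 and trunk minus tail -0.329 (lower on 6 of 6 days each, exact sign-flip p = 0.03125, adjusted p = 0.0469). With at least 50 reads these differences were -0.158 and -0.0898 and neither passed (exact sign-flip test, adjusted p = 0.0938 and 0.25). Head minus trunk was -0.0650, with head lower on 5 of 6 days, and did not pass (exact p = 0.0625, adjusted p = 0.0625). At the other sites with at least 10 reads, fully uncut values were 65.7% in head, 68.6% in trunk and 78.8% in tail, and their control was itself mostly uncut.

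Depth limits what fully uncut means. In tail the share fell from 80.6% at 10 to 19 reads to 70.2% at 20 to 49, 45.9% at 50 to 199 and 11.3% at 200 or more reads. In head it was 26.4%, 12.8%, 5.08% and 7.58% in the same classes, and in trunk 33.3%, 22%, 13.2% and 11.1%. With 10 reads, none cut, a cut share of up to 30% cannot be told from 0. At 10 to 19 reads the median uncut share of head was 0.833, that of trunk 0.818 and that of tail 1, so head and trunk were not apart there. The listing limit bears on this class. A member with fewer than 11 uncut control reads is listed only with at least 11 uncut library reads, so its low shares are missing there. How far that limit shapes the fall with depth was not tested. At 50 to 199 reads it was 0.442, 0.495 and 0.989. At 200 or more reads trunk (0.938, from 22 sites) lay close to tail (0.985, from 19 sites), and head was at 0.472 (21 sites).

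Partly cut sites filled the lower end of the scale in head and, less so, in trunk. An uncut share under 0.5 was held by 43.7% ± 5.07 of head values and 28.2% ± 5.70 of trunk values, but by 0 of 306 tail values. If the 306 values were independent, that count of 0 would allow a share of up to 0.980% in tail, for counting error alone. They come from 140 sites, some of them read on several days, so this limit is too narrow. Trunk values were split between both ends: 20.1% of the 363 lay under 0.4 and 33.6% at 0.95 or above. In head 28.4% of the 454 lay under 0.4 and 17.2% at 0.95 or above, and in tail none and 78.4%.

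**Figure D2:**
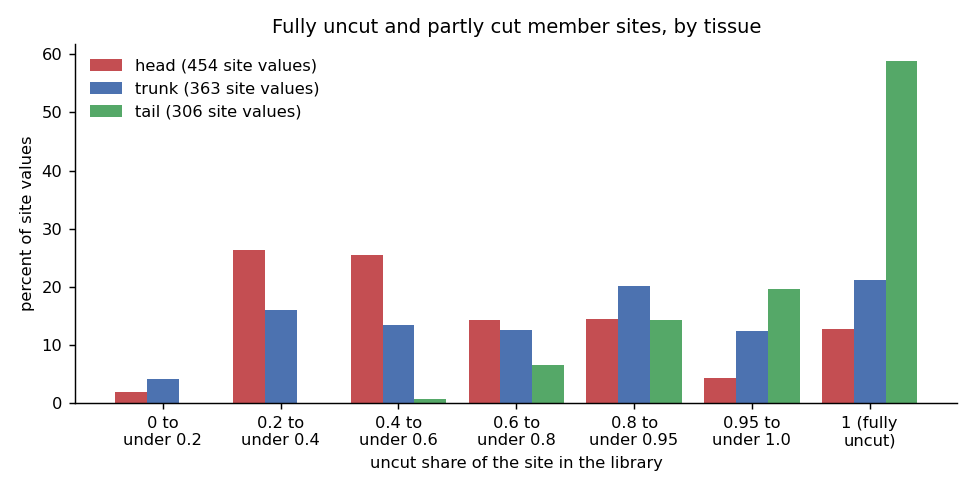
Percent of member site values with at least 10 reads (y axis) in classes of the uncut share (x axis) for head (454 values), trunk (363) and tail (306), all days together. Values without a cut read made up 12.8% in head, 21.2% in trunk and 58.8% in tail, and no tail value fell under 0.4.

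Sites were also sorted by whether every library with at least 10 reads left them uncut. In head, 7 of 164 sites were uncut in every library that gave them at least 10 reads, 138 were partly cut in each and 19 were both. In trunk these numbers were 22, 86 and 14 of 122, and in tail 90, 36 and 14 of 140. Over all tissues 66 of the 311 sites were always uncut, 165 always partly cut and 80 both. The always uncut sites had fewer reads, a median of 20 over all their libraries against 56 for the always partly cut and 138 for those that were both. Their median control share was 0.155, against 0.122 and 0.109. A site read in 1 library cannot be both, and the always uncut, always partly cut and mixed sites had medians of 2, 2 and 5 libraries in head, 2, 3 and 3.5 in trunk and 1, 1 and 4.5 in tail, so these counts do not show how fixed a site is.

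The same sites, read in both tissues, showed the same order. Of 39 members with at least 10 reads in head and in trunk, 38 had a lower mean uncut share in head and 1 a higher one, with a median difference of -0.383 (quartiles -0.528 and -0.176). Of 25 shared by head and tail, 23 were lower and 2 higher in head, with a median of -0.400. Of 70 shared by trunk and tail, 61 were lower in trunk, 3 higher and 6 equal, with a median of -0.247.

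The comparison holds day by day as well. With only members read in both tissues on the same day, the differences of the median level were -0.437 for head minus trunk, -0.488 for head minus tail and -0.140 for trunk minus tail. At the other sites, whose room to fall is smaller, the median differences of the uncut share were -0.0112 over 251 sites, -0.0151 over 184 and 0 over 223. More of these sites too were lower than higher in the first tissue of the pair. For head minus trunk 142 were lower, 22 higher and 87 equal, and for head minus tail 110, 16 and 58. For trunk minus tail 93 were lower, 31 higher and 99 equal.

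**Figure D3:**
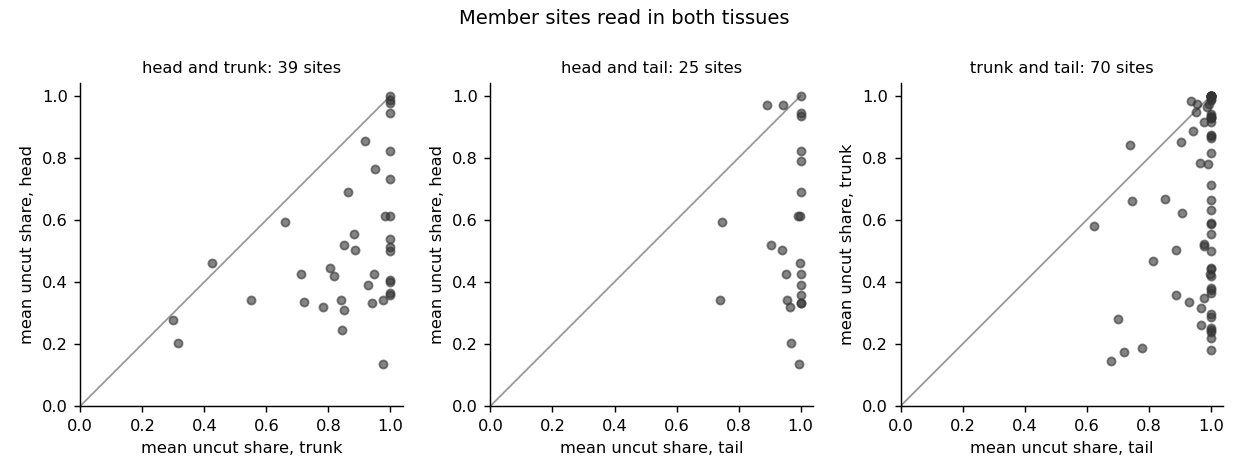
Mean uncut share over days of each member read at least 10 times in both tissues of a pair, the first tissue on the y axis and the second on the x axis, with the line of equal shares. Of 39, 25 and 70 sites, 38, 23 and 61 lie below the line, and many sit at a share of 1 in tail.

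At 19 members all 3 tissues had at least 10 reads. At 14 of them the mean uncut share went up from head to trunk to tail, at 2 from head to tail to trunk, and at 1 from trunk to head to tail, while at 2 trunk and tail were both at 1. At TRINITY_DN5672_c0_g1_i1 position 432, for example, it was 0.427 in head (418 reads), 0.712 in trunk (89 reads) and 1 in tail (28 reads). The tail value there came from 1 library. Its head minus trunk difference of -0.264 ± 0.0798 (limma SE) did not pass (adjusted p = 0.0864). Some of these orders rest on differences far below the spread over days, as at the near-uncut position 2616 of TRINITY_DN678_c0_g2_i4. At several sites the mean of a tissue came from 1 library. Examples are head at position 1465 of TRINITY_DN1290_c0_g1_i7 (37 reads) and tail at position 871 of TRINITY_DN3099_c0_g1_i3 (23 reads). The means of the tissues can thus cover different days. The comparisons of tissues share libraries, so their orders are not independent of each other.

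Single sites were tested with limma over every site of the tables, members and others, with at least 10 reads on at least 4 days in both tissues. In head against trunk, 29.1% of the 86 sites tested were called lower in head, 25 in all, and none higher. Of the 12 members tested, 6 (50%) were called lower in head and none higher. In head against tail, 28% of 50 sites were called lower in head, and 8 of the 10 members tested (80%). In trunk against tail, 14.7% of 68 sites were called lower in trunk and 1 higher, and 6 of the 22 members tested (27.3%) were lower and none higher. On the logit scale there were calls in both directions over all sites: 40 lower and 6 higher in head than in trunk, 18 lower and 3 higher in head than in tail, and 17 lower and 15 higher in trunk than in tail. Of the members, none was called higher in head on that scale, and 3 were called higher in trunk than in tail, beside 9 lower. Members have more room to move than other sites, and whether their share of calls differs from that of the others was not tested.

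The calls fell on 5 contigs in head against trunk, on 6 in head against tail and on 6 in trunk against tail. Of the 20 calls at members, 15 held whichever day was left out.

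The median difference over the members tested was -0.384 in head against trunk, -0.420 in head against tail and -0.0555 in trunk against tail, beside -0.0202, -0.0306 and -0.00140 over all sites tested. The number of calls in trunk against tail was the least firm: without day 5 it fell to 3, and with a quasi-binomial model of the read counts it was 13.

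The 6 members listed in all 18 libraries lay on 6 contigs and give the fullest time courses. The most deeply read was position 339 of TRINITY_DN155747_c0_g1_i1 (minus strand, contig of 1024 bases), with 211846 reads over all libraries. In the control 3758 of its 42210 reads were uncut (0.0890, 95% Wilson interval 0.0864 to 0.0918). Its uncut share in head was 0.426, 0.345, 0.584, 0.407, 0.498 and 0.508 on days 0, 1, 3, 5, 7 and 10. In trunk it was 0.202, 0.313, 0.513, 0.555, 0.418 and 0.552, and in tail it stayed between 0.986 and 1.

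At this site trunk went with head and not with tail. The head and trunk ranges overlapped in part: trunk on days 0 and 1 lay below every head library and head on day 3 above every trunk library. All tail libraries lay above both. The difference was -0.535 ± 0.0327 (limma SE, adjusted p = 0.000136) for head minus tail and -0.571 ± 0.0558 (adjusted p = 0.00317) for trunk minus tail. Head minus trunk was 0.0358 ± 0.0493 (adjusted p = 0.714). It was the 1 member of the 39 shared by head and trunk with a higher mean in head.

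At position 1951 of TRINITY_DN1290_c0_g1_i7 the 3 tissues were separate on average. The uncut share in head was 0.301, 0.280, 0.273, 0.465, 0.270 and 0.333 over the 6 days. In trunk it was 0.552, 0.669, 0.774, 0.909, 0.857 and 0.944, from 827 to 9180 reads. In tail it lay between 0.928 and 0.988, against a control share of 0.116 (19 of 164 reads).

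All head values of this site lay below all trunk values, and trunk reached the tail range only on day 10. Head minus trunk was -0.464 ± 0.0527 (limma adjusted p = 0.00309) and head minus tail -0.646 ± 0.0274 (adjusted p = 3.3e-05). Trunk minus tail was -0.182 ± 0.0553 (adjusted p = 0.0819). The trunk values were lower on days 0 and 1 than later, but each day is 1 library, so that course has no replicate.

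At position 745 of TRINITY_DN11867_c10_g1_i1 trunk lay above tail on 4 of 5 shared days. Its uncut share was 0.312, 0.361, 0.301, 0.436, 0.325 and 0.307 in head. In trunk it was 0.9, 0.698, 0.866, 0.882 and 0.855 from day 1 on (3 of 6 reads were uncut on day 0), and in tail 0.818, 0.750, 0.5, 0.745, 0.757 and 0.873 on the 6 days. Head lay below the rest in every library, and trunk and tail overlapped. Head minus trunk was -0.494 ± 0.0320 (limma adjusted p = 0.00158) and head minus tail -0.400 ± 0.0523 (adjusted p = 0.00355), while trunk minus tail was 0.115 ± 0.0345 (adjusted p = 0.0893).

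At the remaining 3, trunk and tail were close together, and head was well below them at the first and second. At position 153 of TRINITY_DN24716_c0_g1_i1 the share was 0.386 to 0.577 in head, 0.815 to 0.957 in trunk and 0.887 to 1 in tail, with head minus trunk at -0.383 ± 0.0209 (limma adjusted p = 0.000203). At position 820 of TRINITY_DN16393_c0_g1_i2 it was 0.422 to 0.763 in head on days 0 to 7, 0.993 to 1 in trunk and 0.995 to 1 in tail. Head minus trunk there was -0.385 ± 0.0523 (adjusted p = 0.0122, and 0.0710 without day 3), and day 10 in head had 5 reads, all uncut. At position 314 of TRINITY_DN2841_c0_g1_i3 head lay between 0.9 and 1, trunk between 0.993 and 1 and tail at 1 throughout, and head minus trunk was -0.0546 ± 0.0184, which did not pass (adjusted p = 0.0857).

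**Figure D4:**
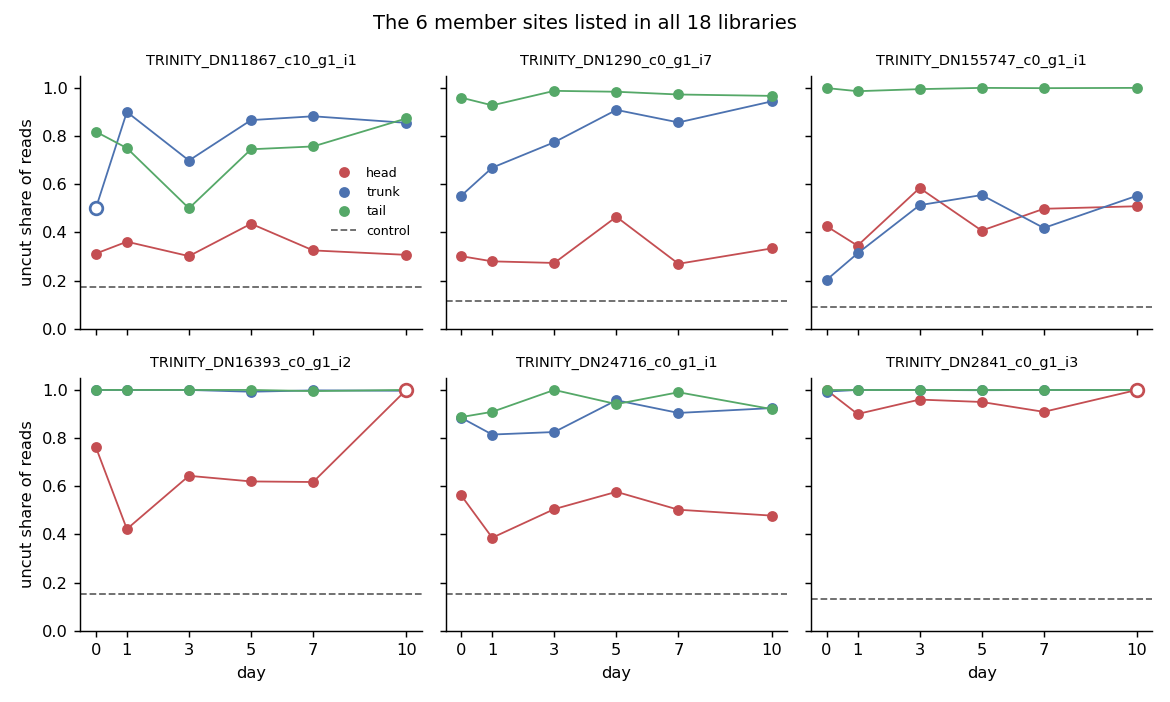
Uncut share of reads (y axis) by day (x axis) at the 6 members listed in all 18 libraries, 1 panel per contig, with the control share as a dashed line. Filled points have at least 10 reads and open points fewer; head has the lowest mean in 5 panels, and in the panel of TRINITY_DN155747_c0_g1_i1 head and trunk overlap below tail.

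Another member, position 316 of TRINITY_DN26425_c0_g1_i1, had a wide gap on fewer days. Its uncut share was 0.458, 0.373, 0.472 and 0.318 in head on days 0, 1, 5 and 7, from 22 to 59 reads, and 1 in the 4 trunk libraries with at least 10 reads. The groups did not overlap, and head minus trunk was -0.605 ± 0.0657, which did not pass with 2 days in common (limma adjusted p = 0.0799).

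The contig with the most members, TRINITY_DN678_c0_g2_i4 (5705 bases, 7 members of 23 listed sites, all on the minus strand), carried a large part of the reads. It held 39.9% ± 19.3 of member reads in head, 88.2% ± 2.55 in trunk and 54.4% ± 18.9 in tail. In head on day 10 it held 0.701%. Reads from 1 transcript allow its sites to be set side by side within the same libraries.

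Position 3263 had the largest head minus trunk difference among the 12 members tested. Its uncut share was 0.346, 0.305, 0.373, 0.335 and 0.344 in head on days 0 to 7, from 4369 to 14317 reads, and day 10 was not listed. In trunk it was 0.988, 0.985, 0.976, 0.978, 0.969 and 0.955, and in tail between 0.929 and 0.985. The head libraries lay far below the others, with head minus trunk at -0.638 ± 0.0122 (limma adjusted p = 2.3e-05) and head minus tail at -0.609 ± 0.0170 (adjusted p = 3.3e-05).

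Position 2616 of the same transcript was uncut in nearly every read of every tissue. In head 16339 of 16340 reads were uncut, in trunk 75609 of 75610 and in tail all 19989, while 6 of 31 control reads were uncut. Its tissue differences were 0 to 2 decimals (limma adjusted p = 1 for each). The head libraries in which position 3263 was cut in most reads were thus the same in which position 2616 was left whole, on the same contig and strand.

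The other members of this contig lay between these. Position 448 was at 0.284, 0.375, 0.477, 0.532 and 0.466 in head on days 0 to 7, at 0.928 to 0.968 in trunk and at 0.935 to 0.966 in tail. Head minus trunk there was -0.516 ± 0.0424 (limma adjusted p = 0.00265). Position 3538 was partly cut everywhere, with head at 0.593 ± 0.0895 (SD, n = 5 days), trunk at 0.661 ± 0.126 (n = 6) and tail at 0.746 ± 0.0747 (n = 6). Its head minus tail difference of -0.158 ± 0.0291 was called (adjusted p = 0.0175) and its head minus trunk difference of -0.0894 ± 0.0401 was not (adjusted p = 0.176). The call was lost without day 0, 1, 5 or 7 (adjusted p from 0.0537 to 0.0731).

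The other 3 members of this contig had no listed value in head. Positions 570, 1311 and 4212 were at 0.914 ± 0.0267, 0.965 ± 0.0161 and 0.935 ± 0.110 in trunk (SD, n = 6 days). In tail they were at 0.979 ± 0.0186 (n = 6), 0.988 ± 0.0051 (n = 6) and 1 ± 0.0002 (n = 4). Trunk minus tail was called at position 570 alone, at -0.0646 ± 0.0149 (limma adjusted p = 0.0383), and that call was lost without day 0, 3, 5, 7 or 10 (adjusted p from 0.104 to 0.134).

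**Figure D5:**
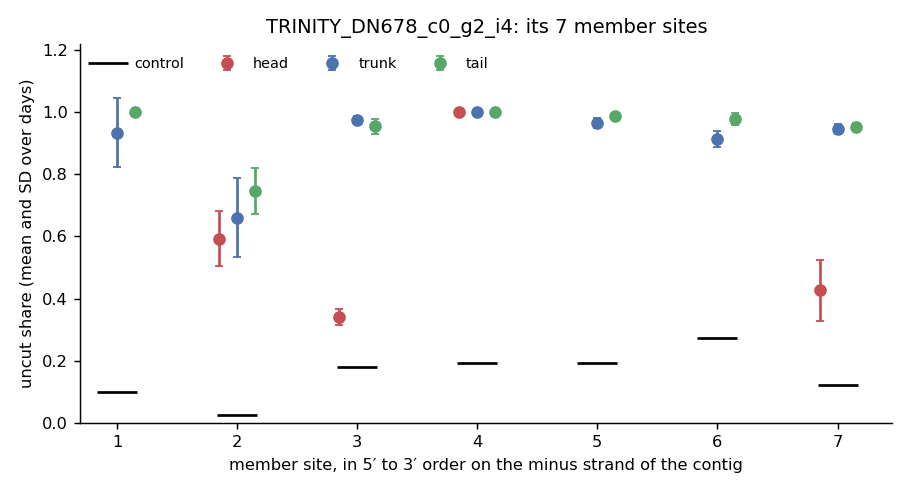
Uncut share (y axis, mean and SD over days with at least 10 reads) at the 7 members of TRINITY_DN678_c0_g2_i4, numbered along the minus strand (x axis), with the control share as a black bar. Head is far below trunk and tail at sites 3 and 7 (positions 3263 and 448), while all tissues are near 1 at site 4 (position 2616); sites without a head point had no listed head value.

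The next contig by number of members, TRINITY_DN1290_c0_g1_i7 (3433 bases, 5 members), held the only member left uncut in all of 6 or more libraries with at least 10 reads. At its position 660 all 367 reads of the 6 trunk libraries were uncut, from 19 to 213 a library, against 6 of 39 in the control. No head or tail library listed it. At position 1275, by contrast, the trunk share was 0.809, 0.839, 0.797, 0.780, 0.576 and 0.875, from 1327 to 12006 reads. In tail it was 0.983 to 0.998, above every trunk library, with a trunk minus tail difference of -0.211 ± 0.0424 (limma adjusted p = 0.0231), a call lost without day 0, 1, 3 or 5 (adjusted p from 0.0649 to 0.0856). At position 1465 the trunk share was 0.922 to 0.998, and the 1 head library that listed it, day 10, had 5 of 37 reads uncut (0.135). Position 505, at 0.778 to 0.978 in trunk, was listed in trunk alone.

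On TRINITY_DN11867_c10_g1_i1 (1601 bases, 4 members) neighbouring sites differed in how far trunk was cut. At position 521 the trunk share was 0.191, 0.172, 0.130 and 0.515 on days 1, 5, 7 and 10, from 33 to 64 reads, and in tail all 1240 reads of the 6 libraries were uncut. The control was cut almost throughout there, with 788 of 27271 reads uncut (0.0289). Trunk minus tail was -0.748 ± 0.0834 (limma adjusted p = 0.0135, and 0.0754 to 0.0963 without day 1, 5 or 7). At position 745, 224 bases further along the contig, trunk lay at 0.840 ± 0.0811 (SD, n = 5 days) and tail at 0.741 ± 0.128 (n = 6). Position 1148 had 0.211 and 0.227 uncut in trunk on days 1 and 5 and 41 of 41 reads uncut in tail on day 7, and position 776 was above 10 reads in 2 libraries.

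The members named for the largest trunk minus tail differences had low mean shares in trunk. Most tail values lay near 1, so a large difference and a low trunk share go together. At position 613 of TRINITY_DN6740_c0_g1_i1 the trunk share was 0.286, 0.295, 0.306, 0.364, 0.237 and 0.402, and the 4 tail libraries with at least 10 reads lay between 0.941 and 1. Head, listed on days 3 and 7, was at 0.184 and 0.221, below every trunk value. Trunk minus tail was -0.647 ± 0.0376 (limma adjusted p = 0.00348).

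Position 225 of TRINITY_DN1930_c0_g2_i6 gave a similar picture. Its trunk share was 0.286, 0.343, 0.292, 0.338, 0.286 and 0.541, and its tail share was 1 in 4 libraries and 0.895 on day 10. Trunk minus tail was -0.631 ± 0.0667 (limma adjusted p = 0.00601). At position 243 of TRINITY_DN171911_c1_g1_i1 the trunk share was 0.286, 0.308, 0.324, 0.5 and 0.803 on days 0, 1, 3, 5 and 10, against 1 in 5 tail libraries, and the difference of -0.526 ± 0.113 did not pass (adjusted p = 0.0688).

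The least protected members with at least 10 reads in 6 or more libraries had low shares in head or trunk. Position 3045 of TRINITY_DN2537_c0_g1_i7 had a mean uncut share of 0.283 over 7 libraries, with 0.207 to 0.434 in head and 0.2 and 0.4 in 2 trunk libraries. Position 4854 of TRINITY_DN4884_c0_g1_i11 was listed in head alone, at 0.333, 0.365, 0.435, 0.460, 0.401 and 0.205 over the 6 days. Position 1026 of TRINITY_DN9226_c1_g1_i3, the member with the lowest control share (38 of 3744 reads, 0.0101), was at 0.188 ± 0.107 in trunk (SD, n = 4 days) and 0.779 ± 0.0470 in tail (n = 3). Position 1679 of TRINITY_DN141_c1_g1_i11 was at 0.146 ± 0.0141 in trunk (n = 3) and 0.677 ± 0.0512 in tail (n = 4). At both, every tail value with at least 10 reads lay above every trunk value, and neither had enough days for the fit.

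The spread from day to day was set against counting error within each tissue. Over members with at least 10 reads on at least 4 days, the median SD over days of the level was 0.0678 in head (56 sites), 0.0589 in trunk (41 sites) and 0.0060 in tail (31 sites). Counting error alone gave 0.0547, 0.0317 and 0.0094. The SD was above the counting error at 35 of the 56 head sites, 35 of the 41 trunk sites and 15 of the 31 tail sites. The median range over days was 0.160 for head sites, 0.165 for trunk sites and 0.0143 for tail sites. Most tail values lay near a share of 1, where there is little room to vary, and 9 of the 31 tail sites had an SD of 0.

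A few sites had wide ranges. The widest range in head, 0.727, was at position 170 of TRINITY_DN3754_c0_g1_i2, where the share was 0.977, 0.845, 0.945, 0.812 and 0.910 on days 0 to 7 and 0.25 on day 10, from 12 reads. Position 2344 of TRINITY_DN4483_c0_g1_i3 was at 0.246, 0.508, 0.543, 0.703 and 0.554 in head on days 0 to 7, lowest on day 0. In trunk position 243 of TRINITY_DN171911_c1_g1_i1, given above, had a range of 0.518, and position 418 of TRINITY_DN17589_c0_g1_i2 was at 0.333, 0.231, 0.7 and 0.5 on days 1, 3, 5 and 10, from 10 to 13 reads. In tail position 745 of TRINITY_DN11867_c10_g1_i1 ranged over 0.373, with its lowest value on 18 reads.

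No difference between day 0 and the later days passed a test, with 1 day 0 library per tissue. The median level on day 0 was above the mean of the later days by 0.0419 on average over tissues, within the spread of the other placements of that label (exact two-sided permutation over all placements of the label within tissues, p = 0.120). Without trunk the difference was 0.00829. In the fit over all sites 0% of 76 were called between day 0 and later days, and 0 of 22 members. At an unadjusted p under 0.05 limma had 9 lower and 1 higher on day 0, of which 2 and 1 were members, and the quasi-binomial model also called none. Named here are the largest coefficients with 1 sign in every tissue that had a day 0 value. They were 0.0839 ± 0.0318 at position 180 of TRINITY_DN19986_c0_g1_i8 (limma adjusted p = 0.263) and -0.112 ± 0.0572 at position 3538 of TRINITY_DN678_c0_g2_i4 (adjusted p = 0.496). Position 180 was listed in head on day 10 alone, so its sign comes from trunk and tail.

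The sites lay across the contigs much as the other sites did. As position over contig length, as filed, the median was 0.478 (quartiles 0.282 and 0.692) against 0.470 (0.246 and 0.696) at the other sites. In 5 equal stretches from the first to the last base of the contig lay 14.7%, 26.3%, 24.8%, 19.9% and 14.3% of the members and 19.9%, 22.9%, 22.4%, 19.9% and 14.9% of the others. Contigs of an assembly can be partial and of either orientation, so these stretches are not parts of a gene. The minus strand held 62.7% of members (324 of 517, 95% Wilson interval 58.4 to 66.7) and 55.8% of the others.

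Counted along the strand of the site, a smaller share of members than of the others lay at the beginning, mainly on the plus strand. The median position was then 0.587 against 0.561 at the other sites. The first of 5 stretches held 8.70% of members (45 sites) and 14.3% of the others, and the last 20.3% and 20.5%. On the plus strand the first stretch held 5.18% of members (10 sites) and 16.4% of the others, and on the minus strand 10.8% (35 sites) and 12.6%. With 1 site per contig the first stretch held 8.35%, and on contigs of 1000 bases or longer 8.20% of members and 15.3% of the others. Sites of a contig share it, so these shares are given without a test.

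The tissue order held along the whole strand. In the 5 stretches along the strand the median uncut share was 0.521, 0.494, 0.390, 0.461 and 0.653 in head, from 10, 32, 32, 45 and 45 sites. It was 0.623, 0.803, 0.627, 0.779 and 0.969 in trunk, from 12, 28, 32, 33 and 17 sites, and tail was at 1 in each stretch. Head and trunk both had their highest median in the last stretch along the strand, and head was below trunk in each. In stretches of the contig as filed, head was also below trunk in each. There trunk was highest in the first stretch (0.914, against 0.866 in the last) and head in the last (0.630). The median place along the strand of always uncut and always partly cut sites was 0.845 (7 sites) and 0.616 (138 sites) in head, 0.688 (22) and 0.501 (86) in trunk, and 0.536 (90) and 0.533 (36) in tail. Counted this way, in tail the kinds lay at similar places, and in head and trunk the always uncut ones lay further along. As filed, the medians were 0.349 (always uncut) and 0.468 (always partly cut) in head. They were 0.498 and 0.474 in trunk and 0.526 and 0.396 in tail. The order of the kinds thus depended on how position was counted.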

How the data were processed

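Per the file headers, the authors' deposited tables hold, for each site and library, library and control counts of uncut reads and of all reads, both uncut shares, the m6A level (a fraction) and the contig length in bases, a value of no sample. The deposited fraction equalled library share minus control share in all 23432 rows within 1e-09. The submitters' processing notes list HISAT2 2.4.2, fastp 0.20.0 and FastQC. The counting program, the assembly build and the listing filter are not given in the sources used here. Headers of the control counts hold both fto and IVT, and these columns were read as the IVT library; no source used here says what fto means. Total depth is unknown, since the tables count reads at listed sites alone.

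Tissue and day came from the labels. Each tissue had 1 library a day, so its 6 days served as replicates: the spread includes change with time, and p-values measure the spread between libraries of pooled animals. Library medians were compared by two-sided exact permutation (sign flips, 64 swaps within days), with Benjamini-Hochberg adjustment over 3 tissue pairs, and day 0 by all placements of its label within tissues. Levels per site went into limma 3.58.1 in R 4.3.3 (lmFit and eBayes, day as a block) over every site with at least 10 reads on at least 4 days in both tissues, and for day 0 (tissue as a block) over sites read in 2 or more tissues then and in 6 or more libraries later. The Benjamini-Hochberg threshold was 0.05 over all sites tested, and a difference of 0 was never called. Other steps used Python 3.11.15 with numpy 2.4.6, pandas 2.3.3 and scipy 1.17.1. Both scripts were tested on simulated data. Wilson intervals (95%) and limits from a count of 0 (3 counts) cover counting error only, and reads without molecular identifiers are not independent molecules.

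The members, lists and tests were chosen with earlier results of these data known. Named sites are those listed in all 18 libraries, the 5 largest differences per tissue pair and direction with 1 sign on every shared day, the largest day 0 coefficients, the most read of those never cut and the least protected in at least 6 libraries, the 2 widest ranges per tissue, the members of the 3 contigs with the most, and sites at the limits. TRINITY_DN5672_c0_g1_i1 was chosen after its values were seen. Alternatives were the read minimum, the control limits, sites shared by both tissues, the scale and model, the block and each day left out.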

Additional observations from a re-analysis of the deposited data

Results flagged for a closer look

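Of 70 groups of 4 to 6 libraries examined, 19 had a lowest or highest value farther from the rest than the 95% critical value for a single outlying value. For continuous values chance gives about 1 in 20. Where every other library sat at a share of 1, any cut read was enough for a flag, so that rate does not hold there. No explanation was tested for any flag. The head library of day 10 was lowest in its tissue for the median uncut share (0.478, next 0.545) and for the median reads per value (23, next 34.5).

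At single sites, the high values were trunk day 10 at positions 521 of TRINITY_DN11867_c10_g1_i1 (0.515, 33 reads) and 225 of TRINITY_DN1930_c0_g2_i6 (0.541, 37 reads), trunk day 1 at position 1026 of TRINITY_DN9226_c1_g1_i3 (0.346, 26 reads), head day 5 at position 1951 of TRINITY_DN1290_c0_g1_i7 (0.465, 2542 reads) and tail day 7 at position 3538 of TRINITY_DN678_c0_g2_i4 (0.898, 18637 reads). The last stood above 5 tail libraries at 0.707 to 0.730.

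Low values in trunk were 0.698 on day 3 at position 745 of TRINITY_DN11867_c10_g1_i1 (63 reads), 0.576 and 0.922 on day 7 at positions 1275 and 1465 of TRINITY_DN1290_c0_g1_i7 (6824 and 2299 reads), and 0.717 on day 1 at position 4212 of TRINITY_DN678_c0_g2_i4 (99 reads). In tail they were 0.5 on day 3 at position 745 of TRINITY_DN11867_c10_g1_i1 (18 reads) and 0.895 on day 10 at position 225 of TRINITY_DN1930_c0_g2_i6 (19 reads). In head position 170 of TRINITY_DN3754_c0_g1_i2 was at 0.25 on day 10 (12 reads). The remaining low values lay within 0.01 of 1 among libraries at or near 1, at 0.995 (position 820 of TRINITY_DN16393_c0_g1_i2, tail day 7), 0.993 (position 314 of TRINITY_DN2841_c0_g1_i3, trunk day 0), 0.999831 and 0.999882 (position 2616 of TRINITY_DN678_c0_g2_i4, head day 5 and trunk day 3) and 0.999527 (position 4212 of that contig, tail day 7).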

How the results depend on the processing

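The tissue order of the median level kept its sign and its side of the threshold under every other alternative tried, apart from single days left out, where 5 days allow no p under 0.0625 and the differences ran from -0.284 to -0.242 (head minus trunk), -0.440 to -0.413 (head minus tail) and -0.184 to -0.153 (trunk minus tail). The fully uncut share was less firm. Without single days it ran from -0.412 to -0.370 (head minus tail) and -0.352 to -0.304 (trunk minus tail); with at least 50 reads these were -0.158 and -0.0898 and no longer passed, and head minus trunk passed with every listed value (-0.138) and with no replicate block (-0.0650, adjusted p = 0.0195). The number of listed members had no settled order: with at least 10 reads log2 head minus trunk, head minus tail and trunk minus tail were 0.20, 0.64 and 0.45, as shares of the list -1.24, -1.24 and 0.0011, and without single days -0.513 to 0.0378 for head minus trunk, -0.80 to -0.19 for head minus tail and -0.288 to 0.0541 for trunk minus tail. Calls at members in trunk against tail were 6, and 3 with at least 50 reads, 12 on the logit scale (3 of them higher in trunk), 13 with the quasi-binomial model, 10 with no replicate block and 3 to 7 without single days. Over all sites tested, calls lower in head than in trunk were 25, between 7 (without day 3) and 40 (logit scale), those lower in head than in tail 14, up to 25 (quasi-binomial), and those lower in trunk than in tail 10, up to 22 (quasi-binomial). The number of members was 338 with a control share of at most 0.2.

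Single-site differences that turned sign were not called in the main setting. Position 339 of TRINITY_DN155747_c0_g1_i1, head minus trunk, was -0.110 (quasi-binomial, log odds) and -0.0017 to 0.0725 without single days. On the logit scale position 2616 of TRINITY_DN678_c0_g2_i4 was 1.23 for head minus tail, and on the level scale head minus trunk there was -3.4e-05 to 2.4e-05 without single days. Trunk minus tail became 1.58 at position 820 of TRINITY_DN16393_c0_g1_i2 and 2.16 at position 314 of TRINITY_DN2841_c0_g1_i3 on the logit scale, 0.12 at the former and -0.48 at position 3263 of TRINITY_DN678_c0_g2_i4 with the quasi-binomial model. The cause was not tested. Deviations of same-day libraries correlated between -0.489 and 0.830 over 5 to 33 sites, so the day did not pair all libraries. Depth limits the shares called fully uncut, and levels under 0.1 are not listed.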
